A study of Mus musculus with 6 samples.

Results

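The proteasome is the protease that breaks down ubiquitin-tagged proteins in the cytosol and nucleus, and its subunit genes were followed here in mouse small-intestinal organoids treated with a LATS kinase inhibitor. The genes were the rows whose symbol starts with Psma, Psmb, Psmc, Psmd, Psme or Psmf followed by a number, which gave 47 of the 24594 rows in the count table. Of these, 14 encode the constitutive 20S core, 17 the 19S regulatory particle, 3 the immunoproteasome subunits, 2 tissue-specific core subunits, 3 assembly chaperones of the 19S base, 5 activators and 1 an inhibitor. The other 2, Psmc3ip and Psme3ip1, encode proteins named for binding a proteasome component and are not subunits.

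The organoids were epithelial cultures of small-intestinal origin. They were raised from single cells for 96 h, by which time buds resembling crypts and villus-like regions were present, and were then kept for 24 h with 5 uM NIBR-LTSi, which blocks the Hippo pathway kinases LATS1 and LATS2, or with DMSO in a corresponding amount. There were 3 libraries in each group, and the labels give neither the mouse strain, sex or age nor whether the replicates were separate cultures, so the spread behind every p-value here may be technical. Total counts were 18395427 to 25238809 with DMSO and 19323994 to 26767043 with NIBR-LTSi. The epithelial markers Epcam, Cdh1, Krt8, Krt18, Krt19, Cdx2 and Vil1 were all detected and summed to 7997 to 8128 CPM (counts scaled to the TMM-normalised library size) with DMSO and 8908 to 9491 CPM with NIBR-LTSi.

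The 20S core is a barrel of outer alpha rings, which gate the entrance, and inner beta rings, in which Psmb5, Psmb6 and Psmb7 encode the peptide-cutting subunits. The 19S particle caps the barrel: its ATPases (Psmc genes) unfold substrates, and its other subunits bind ubiquitin or remove it. Interferon-gamma induces Psmb8, Psmb9 and Psmb10, which take the places of Psmb5, Psmb6 and Psmb7 in newly built particles, and the activator genes Psme1 and Psme2, and the resulting immunoproteasome is known for making peptides for MHC class I.

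Promoter windows are shown for Psmb8, Psmb9 and Psme1, 3 of the 5 inducible genes that fell with NIBR-LTSi. Windows of the constitutive genes Psmb5 and Psmb6, whose products are the ones that Psmb8 and Psmb9 products replace, are shown beside them. Each spans the start of the gene, with most of its bases upstream (RefSeq, GRCm38.p6), and is written 5′ to 3′ along the gene. Capitals mark any match, on either strand, to CCAAT (the NF-Y box), TGACNNNGC (the core of the antioxidant response element, which NRF1 and NRF2 bind) or the interferon-stimulated response element, searched as GAAA, any 2 bases and GAAA.
Psmb8, chr17:34197945-34198244, plus strand: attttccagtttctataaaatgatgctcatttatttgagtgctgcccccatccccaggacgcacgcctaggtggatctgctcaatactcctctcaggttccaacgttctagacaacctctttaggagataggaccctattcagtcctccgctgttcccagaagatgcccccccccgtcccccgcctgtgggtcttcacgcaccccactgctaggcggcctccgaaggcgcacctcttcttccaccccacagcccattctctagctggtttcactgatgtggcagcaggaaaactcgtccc
Psmb9, chr17:34187281-34187580, minus strand: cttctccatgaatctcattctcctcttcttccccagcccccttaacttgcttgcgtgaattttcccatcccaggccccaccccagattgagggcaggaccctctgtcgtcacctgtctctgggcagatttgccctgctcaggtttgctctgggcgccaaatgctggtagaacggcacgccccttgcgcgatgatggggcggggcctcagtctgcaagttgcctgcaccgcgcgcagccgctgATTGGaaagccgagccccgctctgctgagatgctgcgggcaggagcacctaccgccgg
Psme1, chr14:55578244-55578543, plus strand: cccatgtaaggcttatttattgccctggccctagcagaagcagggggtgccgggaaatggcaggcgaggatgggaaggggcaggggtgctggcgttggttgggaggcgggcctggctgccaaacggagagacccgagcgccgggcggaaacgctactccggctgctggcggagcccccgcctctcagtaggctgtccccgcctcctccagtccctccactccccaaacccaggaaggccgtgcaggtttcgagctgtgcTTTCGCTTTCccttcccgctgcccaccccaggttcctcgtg
Psmb5, chr14:54617946-54618245, minus strand: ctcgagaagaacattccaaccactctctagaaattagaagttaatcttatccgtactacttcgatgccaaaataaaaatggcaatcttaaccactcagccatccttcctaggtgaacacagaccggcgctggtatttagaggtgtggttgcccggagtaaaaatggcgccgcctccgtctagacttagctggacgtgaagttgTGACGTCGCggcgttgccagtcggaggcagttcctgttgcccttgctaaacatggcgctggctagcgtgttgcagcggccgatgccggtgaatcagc
Psmb6, chr11:70525107-70525406, plus strand: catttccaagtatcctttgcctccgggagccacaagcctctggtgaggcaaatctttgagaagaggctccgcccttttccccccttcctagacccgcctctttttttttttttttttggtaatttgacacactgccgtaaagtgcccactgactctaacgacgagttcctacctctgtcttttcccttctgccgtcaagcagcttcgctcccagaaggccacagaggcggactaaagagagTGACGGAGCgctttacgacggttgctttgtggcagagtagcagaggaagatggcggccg
The Psmb5 and Psmb6 windows each held the antioxidant core, the Psme1 window held the interferon element on the opposite strand, the Psmb9 window held a reversed CCAAT, and the Psmb8 window held none of the motifs. The windows of Psmb10 and Psme2, which fell as well and are not shown, also held none. Promoter windows were found for 40 of the 47 genes, 44 windows in all, since some genes have several starts. CCAAT was in 6 of 12 windows of the 20S core and 4 of 15 of the 19S particle, against 37.4% of all 32851 windows in the table. The antioxidant core was in 2 of 12 (the Psmb5 and Psmb6 windows shown) and 2 of 15, against 12.4% of all windows. The interferon element was in 1 of 12 core windows, 1 of 15 of the 19S particle and 1 of the 6 windows of Psmb8, Psmb9, Psmb10, Psme1 and Psme2 (4 of 44 over all members), against 3.44% of all windows. These matches describe letters in a window and show no binding.

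Libraries within a group differed together across these genes. DMSO replicate 2 had the highest level of the DMSO libraries in 14 of 14 core genes and in 12 of 17 genes of the 19S particle, against 37.9% of all tested genes. NIBR-LTSi replicate 1 was the highest of its group in 11 of 14 and 11 of 17, against 38.1%. These are the smallest libraries of their groups (18395427 and 19323994 counts), and they stood at the upper end of the second principal component of log2 CPM.

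With NIBR-LTSi, all 3 immunoproteasome subunit genes and the activator genes Psme1, Psme2 and Psme2b fell, by 1.28-fold to 1.72-fold, where 19.2% of all tested genes fell and 22.8% rose. The 31 constitutive genes of the 20S core and the 19S particle moved little: 9 rose, 1 fell and 21 did not pass the test, and none differed by more than 1.19-fold. Most of those that rose encode parts of the 19S particle (7 of 17 genes), with the core at 2 of 14.

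Of the 47 genes, 45 passed the filter on low counts. Of these, 9 rose and 8 fell (edgeR quasi-likelihood test, adjusted p under 0.05), beside the same 22.8% and 19.2% of all 12592 tested genes. The share called in either direction was 42% over all tested genes. The count of 9 higher was 5 with DESeq2, 5 without DMSO replicate 1 and 4 without NIBR-LTSi replicate 2. Without both DMSO replicate 2 and NIBR-LTSi replicate 1, an alternative added after seeing the data, 7 genes rose and 7 fell: 2 core genes and 5 genes of the 19S particle rose, and all 3 immunoproteasome genes fell. Their part in the results beyond this was not tested. The changes were small: 7 of the 45 genes changed at least 1.2-fold, against 38.1% of all tested genes, and the median absolute log2 fold change was 0.08, against 0.19 over all. The libraries of both groups did not overlap in 12 genes that were higher and 9 that were lower with NIBR-LTSi, against 28% and 24.5% of all tested genes (52.5% in either direction).

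**Figure D1:**
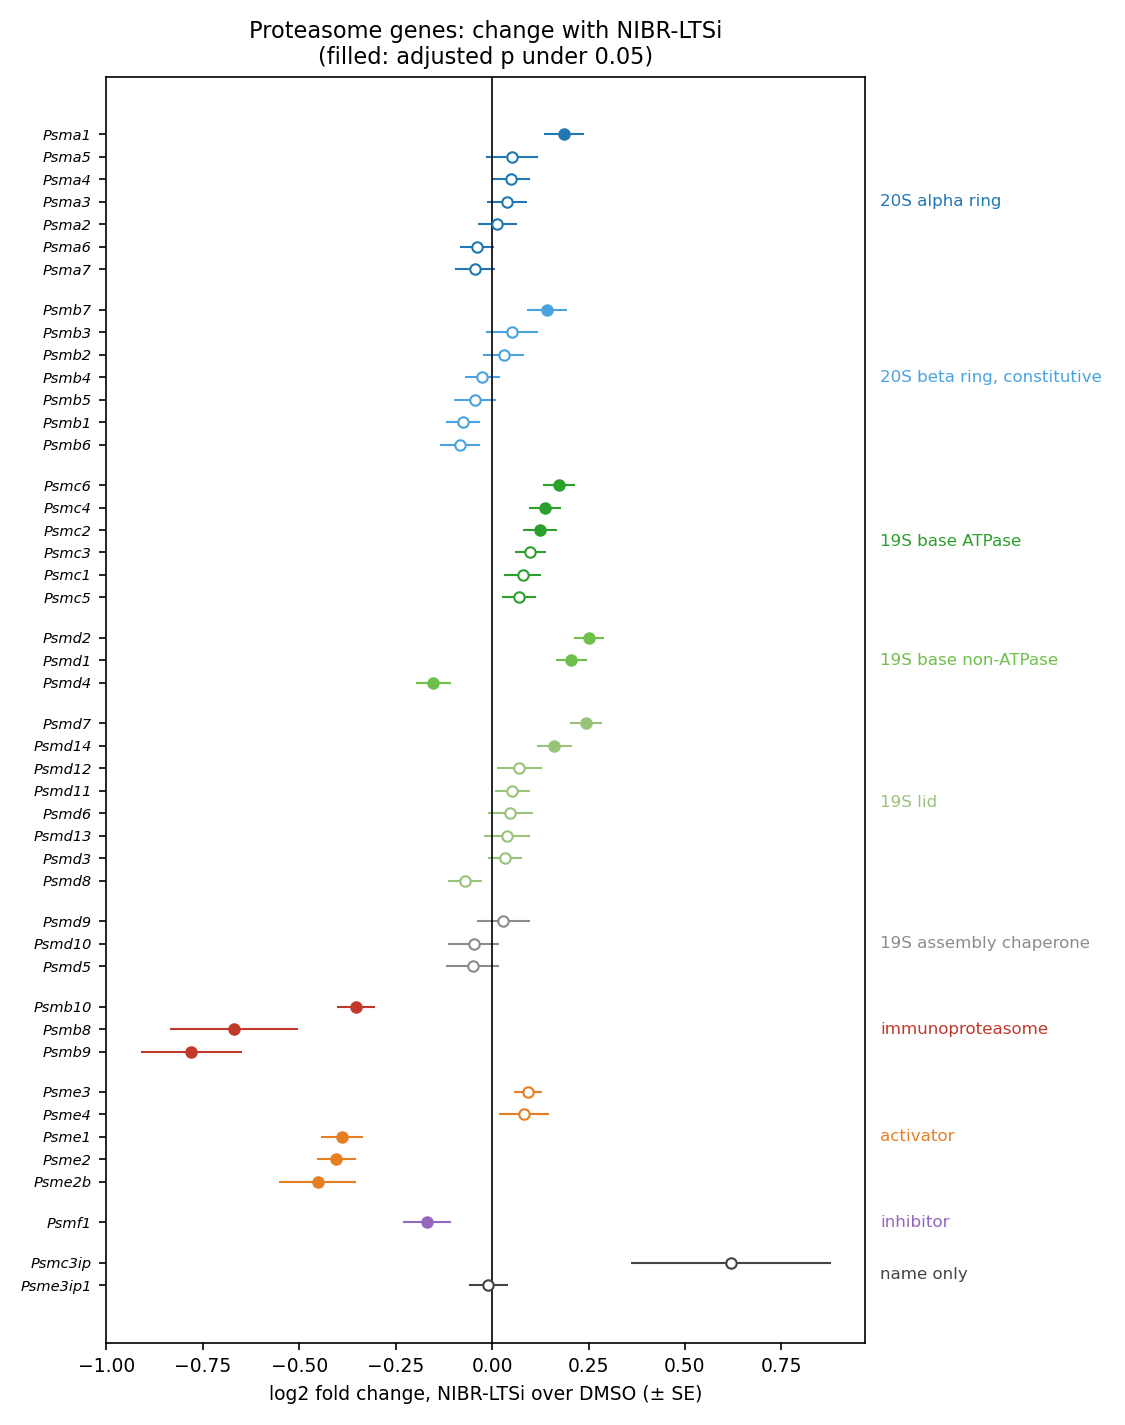
Log2 fold change of each of the 45 tested proteasome genes, NIBR-LTSi over DMSO (x axis, points ± SE, 3 libraries per group), grouped by role. Filled points passed the test: the immunoproteasome genes lie between -0.35 and -0.78, while the constitutive 20S and 19S genes lie between -0.15 and 0.25.

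Psmb9 encodes the inducible subunit that takes the place of Psmb6. It was at 5.41, 6.33 and 5.998 CPM in DMSO replicates 1 to 3 and at 3.41, 3.72 and 3.18 CPM in NIBR-LTSi replicates 1 to 3. Every treated library was below every control library. Its log2 fold change was -0.78 ± 0.13 (SE), with an adjusted p of 5.25e-04 in the edgeR test. The gene is on chromosome 17 at 34182030 to 34187330 (GRCm38.p6), and Psmb8 lies near it at 34198195 to 34201454, both in the MHC region.

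Psmb8 encodes the inducible counterpart of Psmb5. Its levels were 5.05, 5.17 and 4.35 CPM in the controls against 3.72, 2.99 and 2.52 CPM under treatment. The groups again did not overlap, and the log2 fold change was -0.67 ± 0.17 (edgeR adjusted p = 0.00666). Psmb8 and Psmb9 were the least abundant of the subunit genes tested, with 525 and 620 counts over all 6 libraries, and their SEs were wider than those of the other subunits tested.

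Psmb10, on chromosome 8 at 105935728 to 105938392, encodes the inducible counterpart of Psmb7 and was more abundant than the other immunoproteasome genes. It was at 63.6, 64.7 and 61.5 CPM in the controls against 51.2, 50.0 and 47.6 CPM under treatment. All treated libraries were below all controls, and the log2 fold change was -0.35 ± 0.05 (edgeR adjusted p = 1.13e-04). The calls of Psmb8, Psmb9 and Psmb10 were kept under every alternative that was run.

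None of the constitutive counterparts was called lower. Psmb5, the chymotrypsin-like subunit, was at 49.5, 52.3 and 51.0 CPM in the controls against 52.8, 47.6 and 47.8 CPM under treatment. These ranges overlapped, and the log2 fold change was -0.04 ± 0.05 (0.04 after the adjustment for gene width). Psmb6, the caspase-like subunit, was at 122, 129 and 115 CPM in the controls against 120, 113 and 111 CPM under treatment, a log2 fold change of -0.08 ± 0.05 that did not pass the test. Psmb7, the trypsin-like subunit, went the other way: it was at 78.7, 87.4 and 77.7 CPM in the controls against 89.5, 91.2 and 88.3 CPM under treatment. Its log2 fold change was 0.14 ± 0.05 (edgeR adjusted p = 0.0419). The Psmb7 call was lost when any library except DMSO replicate 2 was left out (adjusted p 0.165 and 0.121 when DMSO replicate 1 or 3 was dropped, and 0.0838, 0.176 and 0.0847 when NIBR-LTSi replicate 1, 2 or 3 was), and in DESeq2 (0.137). In all it was lost in 8 of the 17 alternatives.

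**Figure D2:**
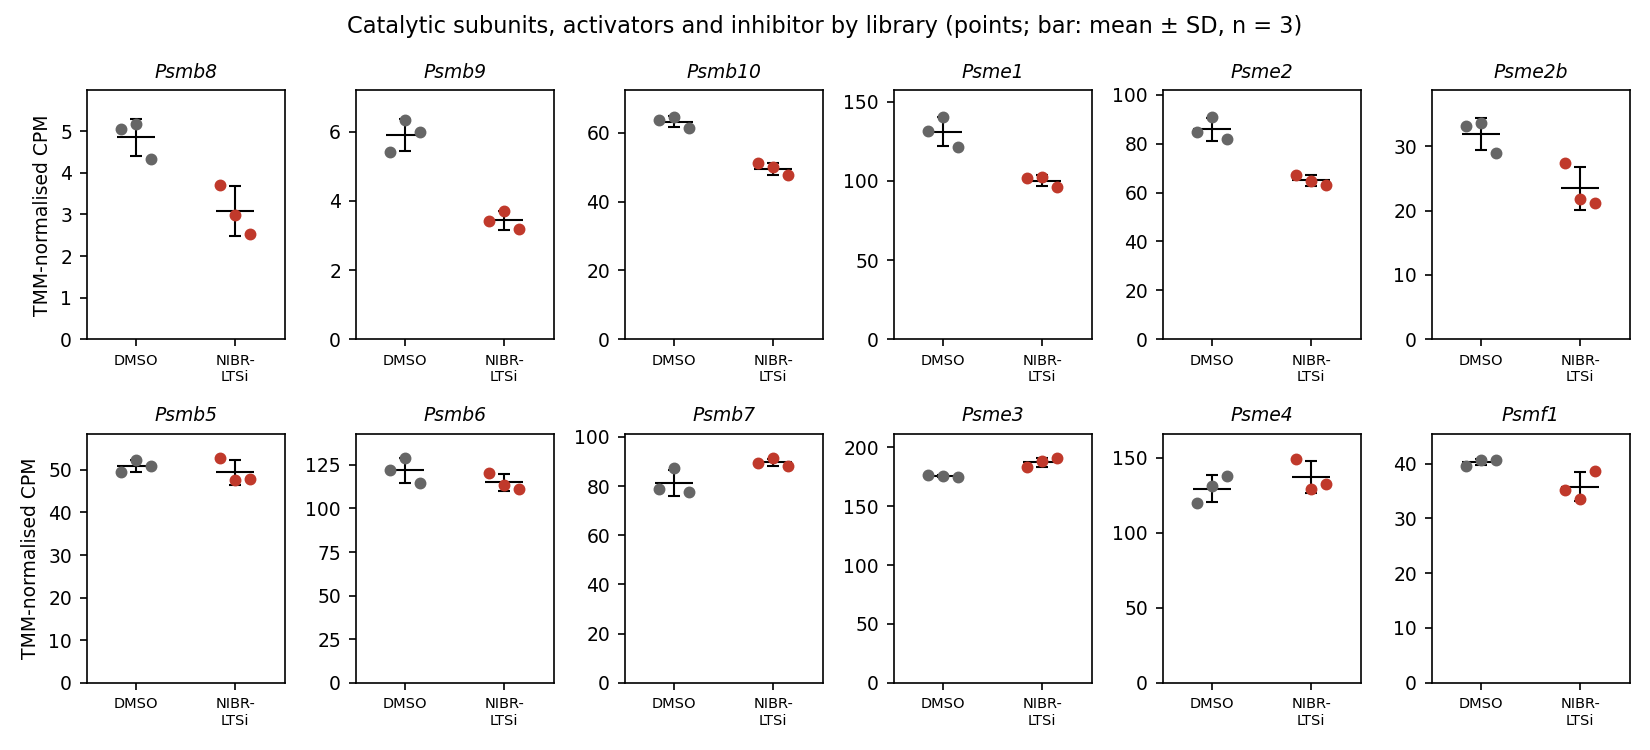
TMM-normalised CPM (y axis, from 0) of the catalytic subunit, activator and inhibitor genes in each library, with points for libraries and bars for mean ± SD (n = 3). The immunoproteasome genes and Psme1, Psme2 and Psme2b are lower in all 3 NIBR-LTSi libraries than in any DMSO library, while Psmb5, Psmb6 and Psme4 overlap between the groups.

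Set against its constitutive counterpart within each library, each inducible subunit gene took a smaller share with NIBR-LTSi. Per kb of the gene width deposited by the authors, Psmb8 was at 2.71%, 2.63% and 2.27% of the Psmb5 level with DMSO and at 1.87%, 1.67% and 1.40% with NIBR-LTSi. Psmb9 was at 2.27%, 2.52% and 2.67% of the Psmb6 level with DMSO and at 1.45%, 1.68% and 1.46% with NIBR-LTSi. Psmb10 was at 162%, 148% and 159% of the Psmb7 level with DMSO and at 115%, 110% and 108% with NIBR-LTSi. None of these ratios overlapped between the groups, and the treated mean was 0.65, 0.615 and 0.709 of the control mean for the Psmb8, Psmb9 and Psmb10 ratios. An exact two-sided permutation test over the libraries gave p = 0.1 for each of the 3 ratios (0.1 also after adjustment over them), the smallest p that 3 libraries against 3 allow.

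The ratio levels, though not their change, depended on the length used. Per kb of the principal GENCODE transcript, a length chosen after seeing the data, the DMSO ratios were 5.27% ± 0.49 for Psmb8, 2.87% ± 0.24 for Psmb9 and 69.0% ± 3.2 for Psmb10 (SD, n = 3). Psmb10 was thus above Psmb7 by one length and below it by the other. Psmb8 and Psmb9 were at a few percent of their counterparts by both.

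**Figure D3:**
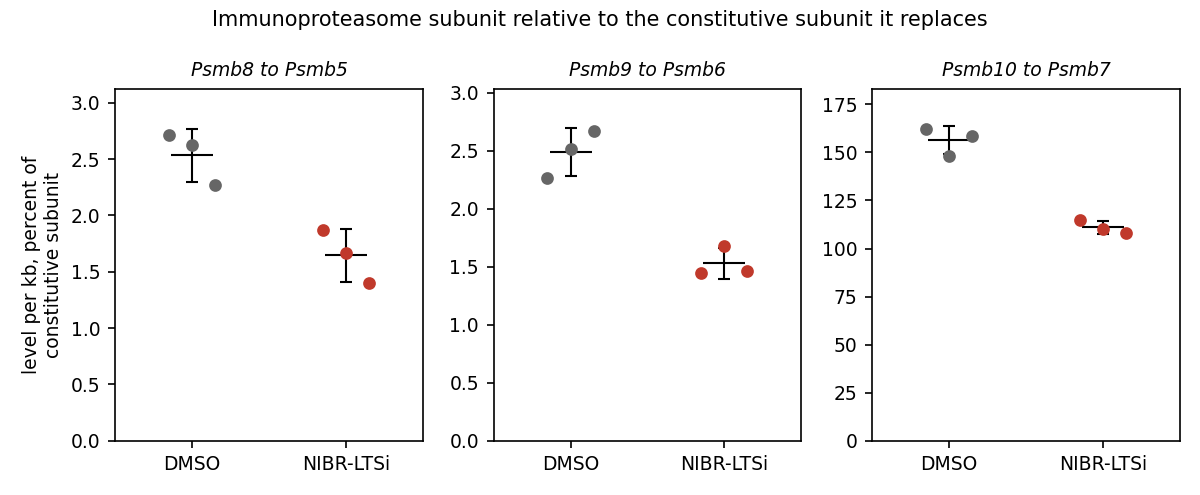
Level of each immunoproteasome gene per kb of deposited width as a percent of the constitutive gene it stands in for (y axis, from 0), with points for libraries and bars for mean ± SD (n = 3). The DMSO means are 2.54%, 2.49% and 156%, and the NIBR-LTSi means are 1.65%, 1.53% and 111%.

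Of the 5 activator genes, the 3 of the PA28 alpha and beta chains fell, and Psme3 and Psme4 did not pass the test. Over all tested genes, 19.2% fell and 22.8% rose. Psme1 and Psme2 encode the alpha and beta chains of PA28, the interferon-inducible ring that caps the 20S core, and are neighbours on chromosome 14 (55578494 to 55581527 and 55587440 to 55591101). Psme1 was at 132, 140 and 122 CPM in the controls against 102, 103 and 96.3 CPM under treatment, a log2 fold change of -0.39 ± 0.05 (edgeR adjusted p = 1.27e-04). Psme2 was at 84.6, 91.0 and 82.0 CPM in the controls against 67.1, 64.8 and 62.9 CPM under treatment, a log2 fold change of -0.40 ± 0.05 (edgeR adjusted p = 5.69e-05). In both genes all treated libraries lay below all controls, and both calls were kept under every alternative that was run.

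Psme2b, a copy of Psme2 on chromosome 11, fell from 31.9 ± 2.5 to 23.5 ± 3.4 CPM (SD, n = 3; log2 fold change -0.45 ± 0.10, edgeR adjusted p = 0.00490). Reads of Psme2 and Psme2b cannot be assigned with certainty, because the counting could have split them between the copies.

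Psme3 encodes PA28 gamma, the nuclear activator that interferon does not induce. It was at 177, 176 and 175 CPM in the controls against 183, 188 and 191 CPM under treatment. All treated libraries were above all controls, but the log2 fold change of 0.09 ± 0.04 did not pass the test (edgeR adjusted p = 0.0618; 0.0457 with upper-quartile factors, 0.0110 with library totals only and 0.0276 after the width adjustment). Psme4 encodes PA200, an activator known for its role in histone degradation, and was at 120, 131 and 137 CPM in the controls against 149, 129 and 132 CPM under treatment, with overlapping groups (log2 fold change 0.08 ± 0.07).

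Psmf1 encodes PI31, first described as an inhibitor of the 20S core. It was at 39.6, 40.6 and 40.7 CPM in the controls against 35.2, 33.5 and 38.8 CPM under treatment. The groups did not overlap and the log2 fold change was -0.17 ± 0.06 (edgeR adjusted p = 0.0480). The call was lost without any 1 library except NIBR-LTSi replicate 3 (adjusted p 0.0862, 0.0994 and 0.0918 without DMSO replicates 1, 2 and 3, and 0.0810 and 0.149 without NIBR-LTSi replicates 1 and 2), and in limma-voom (0.0559) and DESeq2 (0.0773). In all it was lost in 13 of the 17 alternatives.

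In the 19S particle, 7 of 17 genes rose and 1 fell, where 22.8% of all tested genes rose and 19.2% fell. Its median log2 fold change was 0.08, against 0.02 over all tested genes. The count of 7 was 4 with DESeq2 and 4 without NIBR-LTSi replicate 2, and the 1 that fell was not called without DMSO replicate 1, without NIBR-LTSi replicate 3 or with library totals only. The highest log2 fold changes were those of Psmd2 and Psmd1, the scaffold genes of the base, and the lid gene Psmd7. Psmd2, which encodes Rpn1, the docking site for ubiquitin shuttles, was at 152, 150 and 152 CPM in the controls against 187, 177 and 176 CPM under treatment. Its log2 fold change of 0.25 ± 0.04 (edgeR adjusted p = 2.88e-04) was the highest among the constitutive subunit genes, and it lies on chromosome 16 at 20651122 to 20663414. Psmd1, which encodes Rpn2, rose from 132 ± 3 to 152 ± 3 CPM (log2 fold change 0.21 ± 0.04, edgeR adjusted p = 0.00133).

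Psmd4 encodes Rpn10, a ubiquitin receptor of the base, and was the constitutive subunit gene that fell. It was at 109, 104 and 101 CPM in the controls against 94.2, 96.996 and 91.5 CPM under treatment, without overlap. Its log2 fold change was -0.15 ± 0.04 (edgeR adjusted p = 0.0165). It missed the threshold at 0.0888 without DMSO replicate 1, at 0.0641 without NIBR-LTSi replicate 3 and at 0.0753 with library totals only.

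All 6 ATPase genes had a log2 fold change above 0, from 0.07 (Psmc5) to 0.17 (Psmc6). Of these, 3 rose (1 by DESeq2), beside 22.8% of all tested genes. Psmc6 was at 91.0, 95.3 and 92.4 CPM in the controls against 106, 102 and 105 CPM under treatment (log2 fold change 0.17 ± 0.04, edgeR adjusted p = 0.00544). Psmc5 was at 90.8, 93.9 and 88.3 CPM in the controls against 99.2, 94.6 and 92.8 CPM under treatment, and its groups overlapped. Psmc4 (log2 fold change 0.14) and Psmc2 (0.12) also rose. Psmc4 missed the threshold at 0.0596 without DMSO replicate 1, at 0.0808 and 0.106 without NIBR-LTSi replicates 1 and 2, and at 0.0961 in DESeq2. The Psmc2 call was lost without any 1 library except DMSO replicate 2 (0.0800 to 0.196), and in DESeq2 (0.201). In all it was lost in 11 of the 17 alternatives. Psmc1 and Psmc5 were not called, but passed with library totals alone (adjusted p 0.0418 and 0.0480) and with the width adjustment (0.0288 and 0.0167). Psmc3 did not pass the test (log2 fold change 0.10, adjusted p = 0.0660) but did without DMSO replicate 2 (0.0336), with library totals only (0.0110) and after the width adjustment (0.0140).

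In the lid, which removes ubiquitin chains before degradation, 2 of 8 genes rose and none fell, beside 22.8% and 19.2% of all tested genes. No lid gene fell at an unadjusted p under 0.05 in edgeR either, and DESeq2 called 1 higher and 0 lower. Psmd7, which encodes Rpn8, was at 76.7, 75.9 and 74.3 CPM in the controls against 90.8, 88.4 and 89.5 CPM under treatment (log2 fold change 0.24 ± 0.04, edgeR adjusted p = 5.37e-04), and lies on chromosome 8 at 107580380 to 107588482. Psmd14, which encodes Rpn11, the deubiquitinase that pairs with Rpn8, rose from 70.2 ± 2.6 to 78.5 ± 1.1 CPM (log2 fold change 0.16 ± 0.04, edgeR adjusted p = 0.0125; 0.0814 without NIBR-LTSi replicate 2). At the other end, Psmd8, a lid gene encoding Rpn12, was at 126, 137 and 126 CPM in the controls against 125, 122 and 123 CPM under treatment, without overlap, but its log2 fold change of -0.07 ± 0.04 did not pass the test (edgeR adjusted p = 0.235). The chaperone genes Psmd5, Psmd9 and Psmd10, whose products help to build the base and leave the finished particle, had log2 fold changes of -0.05 to 0.03. None was called by edgeR or DESeq2, and none had an unadjusted p under 0.05.

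In the 20S core, 2 of 14 genes rose and none fell, where 22.8% of all tested genes rose and 19.2% fell. Its median log2 fold change was 0.02, equal to that over all tested genes. No core gene was lower at an unadjusted p under 0.05 in edgeR, and DESeq2 called 1 higher and 0 lower. The count of 2 was 0 without DMSO replicate 1 and without NIBR-LTSi replicate 2, and 1 without DMSO replicate 3 or without NIBR-LTSi replicate 1 or 3. In the alpha rings the gene that rose was Psma1, at 82.7, 89.8 and 79.9 CPM in the controls against 98.9, 96.0 and 92.3 CPM under treatment. Its log2 fold change was 0.19 ± 0.05 (edgeR adjusted p = 0.0125; 0.0596 without DMSO replicate 1 and 0.0651 without NIBR-LTSi replicate 2). Psma7 stood lowest in the alpha rings, at 144, 147 and 137 CPM in the controls against 147, 138 and 130 CPM under treatment (log2 fold change -0.04 ± 0.05). The other 5 alpha genes lay between -0.04 and 0.05. In the constitutive beta rings Psmb7 was the gene that rose and Psmb6 stood lowest, both with the values given above. The 4 beta genes without a catalytic role, Psmb1, Psmb2, Psmb3 and Psmb4, lay between -0.08 and 0.05.

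The summed level of the core genes was 1296 to 1420 CPM in the controls against 1308 to 1401 CPM under treatment, so the groups overlapped. That of the 19S genes was 1609 to 1687 CPM in the controls against 1727 to 1792 CPM under treatment, with no overlap. The sum over Psmb8, Psmb9, Psmb10, Psme1 and Psme2 went from 291 ± 16 to 221 ± 8 CPM. All 47 genes together summed to 3688 to 3929 CPM in the controls against 3756.5 to 3946 CPM under treatment, with overlap. Without TMM scaling they held 0.363% to 0.385% of all counts with DMSO and 0.384% to 0.396% with NIBR-LTSi, and the groups overlapped. Per kb of deposited width their share was 0.444% to 0.457% with DMSO and 0.4795% to 0.4915% with NIBR-LTSi, without overlap. In bulk libraries such as these, fewer cells of a type and less RNA per cell cannot be told apart.

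Levels per length varied within each ring, although the finished particle holds its subunits in equal numbers. With DMSO, CPM per kb of deposited width ran from 18.9 (Psma3) to 87.6 (Psma6) in the alpha rings, a ratio of 4.63, and from 23.1 (Psmb3) to 79.1 (Psmb4) in the constitutive beta rings. It ran from 13.3 (Psmc2) to 65.3 (Psmc5) over the ATPases and from 13.5 (Psmd11) to 47.8 (Psmd7) over the lid. The spread depended on the length used: per kb of the principal transcript, the ratio of highest to lowest was 6.03 over the alpha rings, 2.70 over the constitutive beta rings, 1.89 over the ATPases (4.91 with the deposited width) and 2.78 over the lid. Psmb8 and Psmb9 were at 1.44 and 1.62 CPM per kb of deposited width, the lowest of the tested subunit genes.

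**Figure D4:**
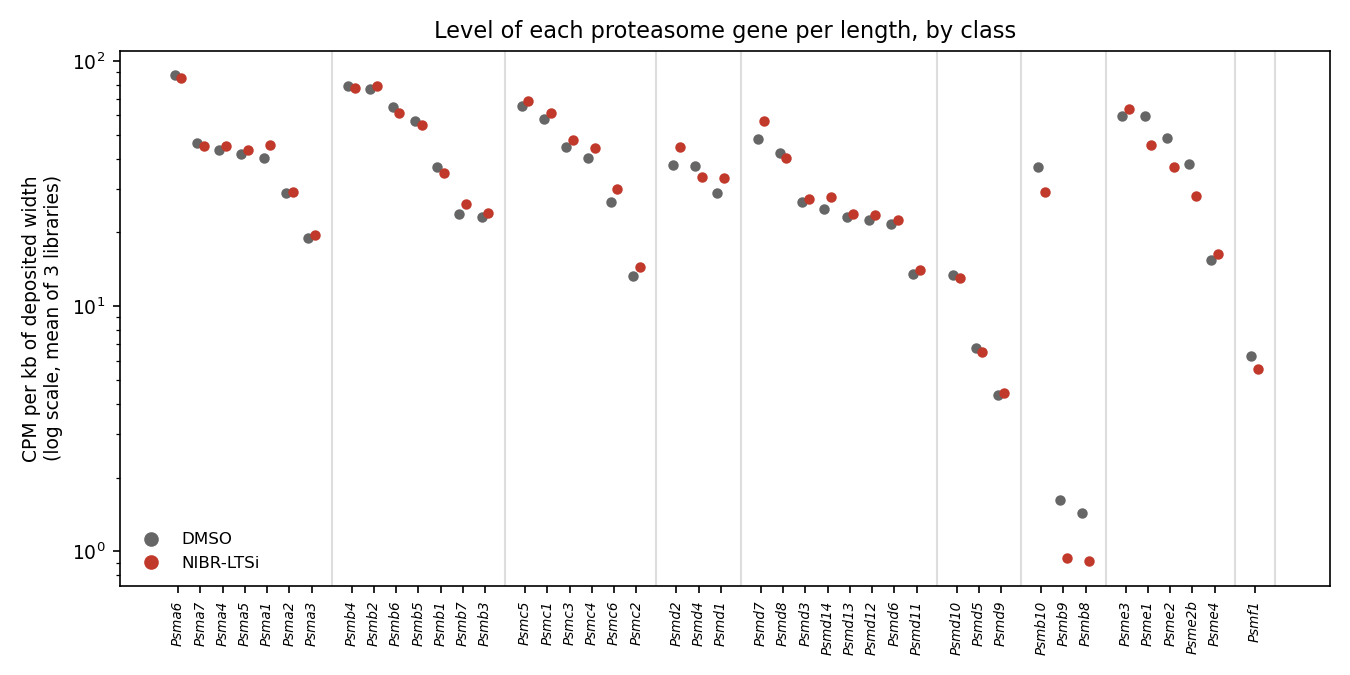
Mean level of each proteasome gene in CPM per kb of deposited width (log axis) with DMSO (grey) and NIBR-LTSi (red), 3 libraries each, in blocks by role from the alpha rings at the left to the inhibitor at the right. Psmb8 and Psmb9 lie near 1 and the constitutive core genes between 18.9 and 87.6 with DMSO.

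The tissue-specific core genes did not pass the filter. Psma8, the alpha subunit of the testis, had 2 counts over all 6 libraries, and Psmb11, the beta subunit of the thymic epithelium, had 0. Of the genes that share only the name, Psmc3ip, which encodes a recombination factor, was at 1.04, 1.11 and 0.85 CPM in the controls against 1.81, 1.55 and 1.28 CPM under treatment (log2 fold change 0.62 ± 0.26, edgeR adjusted p = 0.0753). Psme3ip1 was at 46.9 ± 0.5 and 46.6 ± 1.8 CPM.

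Most partner genes of the inducible set were lower too. In a list of 20 genes, 19 of them tested, of interferon signalling and MHC class I presentation, 11 fell and 3 rose, where 19.2% of all tested genes fell and 22.8% rose. B2m, the light chain of MHC class I, fell from 495 ± 31 to 358 ± 2 CPM (log2 fold change -0.47 ± 0.04, edgeR adjusted p = 5.35e-06), and the peptide-loading gene Tapbp (tapasin) fell from 114 ± 6 to 82.6 ± 3.1 CPM (edgeR adjusted p = 1.70e-05). The class I heavy chain H2-K1, which is hard to tell from its paralogs by reads, fell by 0.36 on the log2 scale. Chosen after their values were seen, the peptide transporter Tap1 (log2 fold change -0.31) and the interferon-response regulators Irf1 (-0.31) and Irf9 (-0.41) also fell. Chosen in the same way, the peptide-loading genes Calr (0.14, edgeR adjusted p = 0.00397) and Pdia3 (0.14, edgeR adjusted p = 0.00518) rose, and Tap2 (-0.17), the partner of Tap1, and Stat2 (-0.07) did not pass the test. Of the genes that rose, the one with the smallest p was Ifngr1, the ligand-binding chain of the interferon-gamma receptor, which rose from 299 ± 9 to 414 ± 4 CPM (log2 fold change 0.47 ± 0.04, edgeR adjusted p = 1.00e-06).

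**Figure D5:**
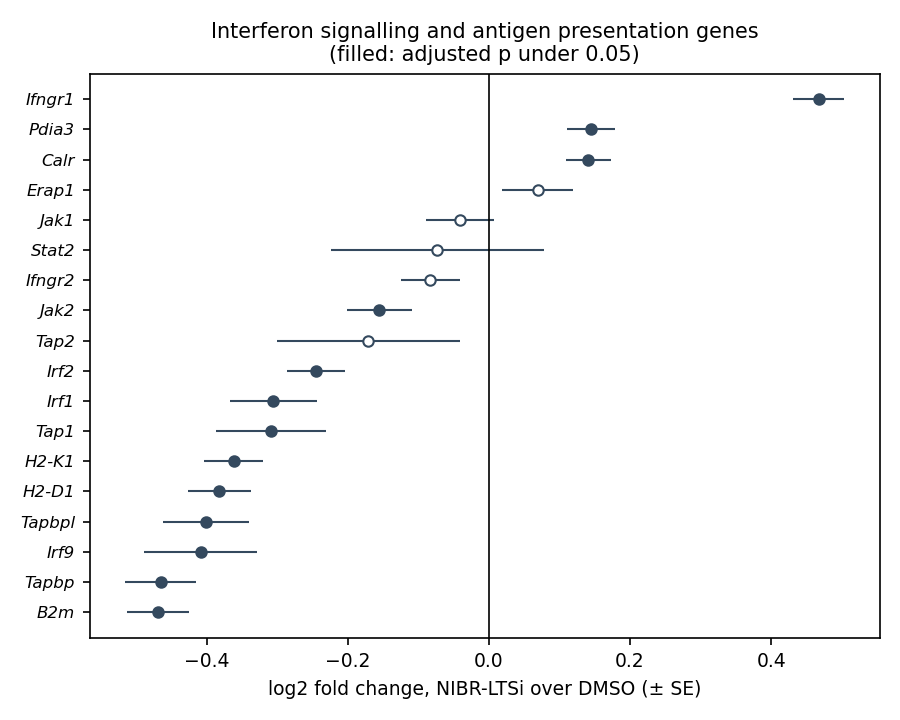
Log2 fold change (x axis, points ± SE, 3 libraries per group) of 18 of the 19 tested genes of interferon signalling and antigen presentation. Of the filled points, which passed the test, 10 lie below 0 and 3 above, with Ifngr1 at 0.47 and B2m at -0.47.

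Leukocytes also express immunoproteasome genes at high levels. The defining leukocyte markers Cd3e, Cd3g, Cd8a and Coro1a had no counts in any library, and Ptprc, which encodes CD45, was at 0.031 and 0.014 CPM on average. The 12 leukocyte markers summed to 12.2 to 12.4 CPM with DMSO and 12.6 to 14.6 CPM with NIBR-LTSi, mostly from Itgam, Csf1r and Cd68. Of the 4 that were tested, Itgam (log2 fold change 0.21), Csf1r (0.37) and Cd68 (-0.07) did not pass the edgeR test, and Lyz2 (-0.998, 73 counts in all) passed as lower, while DESeq2 called none. Fibroblast markers summed to 6.05 to 8.11 CPM with DMSO and 4.79 to 5.52 CPM with NIBR-LTSi, nearly all of it Vim, which other cell types also express. Dcn and Lum were at 0, and the collagen genes, Pdgfra and Acta2 had 1 to 4 counts each. Of 7 epithelial markers, Krt18 (log2 fold change 0.63), Krt8 (0.46) and Krt19 (0.29) rose and Vil1 (-0.39) fell. Of 6 tested stem cell and proliferation genes, Top2a (0.76), Ccnb1 (0.70) and Smoc2 (0.20) rose, and Olfm4 (-0.97) and Lgr5 (-0.69) fell. Over all tested genes, 22.8% rose and 19.2% fell. The part of these markers in the proteasome results was not tested.

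Of 17 tested proteasome assembly factors and associated proteins, 7 rose and 1 fell (3 and 1 by DESeq2), beside 22.8% and 19.2% of all tested genes. The proteasome-bound deubiquitinase genes Uchl5 and Usp14 rose from 31.5 ± 1.2 to 40.5 ± 1.9 CPM and from 57.9 ± 2.4 to 69.4 ± 0.5 CPM (log2 fold changes 0.36 and 0.26, edgeR adjusted p = 3.90e-04 and 7.95e-04), and the proteasome-bound thioredoxin gene Txnl1 rose by a log2 fold change of 0.23. Zfand5, an activator of the 26S proteasome, fell from 139 ± 3 to 119 ± 7 CPM (log2 fold change -0.23, edgeR adjusted p = 0.00220). None of 13 genes of ubiquitin shuttles and the p97 unfoldase machinery was called by edgeR or DESeq2; at an unadjusted p under 0.05, 2 were higher and 1 was lower.

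Of 14 genes for transcription factors and their regulators that act on proteasome genes, 2 rose and 1 fell, a smaller share than the 42% of all tested genes called in either direction. Nfe2l2, which encodes NRF2, rose from 557 ± 12 to 636 ± 27 CPM (log2 fold change 0.19 ± 0.04, edgeR adjusted p = 0.00177), and its competitor Bach1 rose by a log2 fold change of 0.22. The small MAF gene Mafk fell from 102 ± 2 to 75.6 ± 4.1 CPM (log2 fold change -0.43, edgeR adjusted p = 2.47e-05). Nfe2l1, which encodes NRF1, the factor that raises subunit genes when the proteasome is inhibited, was at 136 ± 6 and 144 ± 4 CPM and did not pass the test (adjusted p = 0.194; 0.0421 with library totals only). Of 6 tested ubiquitin genes and genes of ubiquitin activation, 1 rose and 1 fell (1 and 3 by DESeq2), beside 22.8% and 19.2% of all tested genes. Their median log2 fold change was -0.08. The 1 that rose was the ubiquitin-activating enzyme gene Uba6, from 21.7 ± 1.0 to 28.8 ± 1.4 CPM (log2 fold change 0.41, edgeR adjusted p = 3.49e-04).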

How the data were processed

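RNA was sequenced from 6 organoid libraries. Per the labels' protocols, organoids were digested to single cells and stranded mRNA libraries were made from 200 ng of total RNA. The deposited file is 1 table of whole-number read counts for each gene, beside its symbol, Entrez identifier and width in bases. Per the submitters' processing notes the build was mm10 and edgeR was used. How reads were aligned and counted, and with what strand setting, is not given in the sources used here, so reads of genes that overlap cannot be assigned with certainty. This concerns 15 of the 47 members, among them Psmb5, Psmb7, Psme1, Psme2b, Psme4, Psmf1 and Psmd1.

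Counts were scaled with TMM factors and filtered with filterByExpr (12592 of 24594 rows kept), and tested with edgeR 4.0.16 (R 4.3.3) by the robust quasi-likelihood F-test, two-sided, on group alone, with 4 residual degrees of freedom and Benjamini-Hochberg adjustment over all tested genes at 0.05. Each SE was derived from the log2 fold change and its F statistic (their size over the root of F). The common dispersion gave a coefficient of variation of 6.02%. Chi-square per degree of freedom between libraries of a group was 4.46 to 11.3, so none were duplicates. The procedure was tested on simulated counts. Alternatives used limma 3.58.1, DESeq2 1.42.0, other scalings and filters, a replicate block, lowess offsets on gene width (span 0.5) and libraries left out.

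Members, lists and tests were chosen with earlier results of these data known. Genes named with values in each library were the catalytic subunits, the activators, Psmf1 and the members with the highest and lowest log2 fold change of each class, and in each partner list up to 4 tested genes with the smallest p; Psmc1 to Psmc4, Psmd1, Psmd14 and Psme2b were added after their values were seen. Some items of these lists are not reported here. Intervals and errors cover these libraries only.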

Additional observations from a re-analysis of the deposited data

How the results depend on the processing

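Of the 17 members called, 10 kept their call and direction under all 17 alternatives: Psmb8, Psmb9, Psmb10, Psme1, Psme2, Psme2b, Psmc6, Psmd1, Psmd2 and Psmd7. Across the alternatives, 6 to 8 members were lower and 4 to 13 higher (13 with library totals only and 12 after the width adjustment), and 3 of 3 immunoproteasome genes were lower in every alternative. With DESeq2, 5 members were higher, 1 of them in the core and 4 in the 19S particle. The core count was also 1 with DESeq2 size factors and without robust estimation, and no 19S gene was lower with library totals only; the cause was not tested. With 1 library left out at a time, members higher numbered 4 to 10 and lower 6 to 7, core genes higher 0 to 2, 19S genes higher 4 to 8 and lower 0 to 1. In the same fits, 2201 to 2768 of all genes were higher and 1934 to 2340 lower. The treated to control fold of the ratios ranged from 0.606 to 0.698 for Psmb8, 0.585 to 0.640 for Psmb9 and 0.691 to 0.722 for Psmb10. The fold of the summed share of counts, taken without TMM scaling, was 1.05 (1.03 to 1.06 with 1 library left out) and 1.08 per kb of width. With TMM scaling, the fold of the summed level of all 47 genes was 1.01. With library totals only, the median log2 fold change over all tested genes was 0.063.

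Signs turned only in members that did not pass the test. With library totals only, the log2 fold change was 0.035 for Psme3ip1, 0.020 for Psmb4 and 0.0050 for Psma6. After the width adjustment it was 0.034 for Psmb4, 0.043 for Psmb5, 0.029 for Psma6, 0.0074 for Psmd10, -0.0027 for Psmd9 and -0.0023 for Psmd11. For Psma2 it was -0.0038 in DESeq2 and -0.0047 with DESeq2 size factors. Without DMSO replicate 2 and NIBR-LTSi replicate 1 together it was -0.043 for Psmd13. With 1 library left out at a time, it ranged from -0.052 to 0.0053 for Psme3ip1, -0.027 to 0.054 for Psma2, -0.051 to 0.0017 for Psmb4, -0.0037 to 0.054 for Psmd3, -0.021 to 0.099 for Psmd13, -0.0035 to 0.106 for Psma5, -0.030 to 0.061 for Psmb2, -0.016 to 0.114 for Psmb3, -0.0035 to 0.091 for Psmd6, -0.109 to 0.0059 for Psmd5 and -0.020 to 0.076 for Psmd9.

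Whether the replicate numbers pair the libraries is not known. Same-numbered libraries correlated at 0.0482, -0.296 and 0.562 in their deviations from the group means, and only the libraries numbered 3 correlated best with their own number. DMSO replicate 2 and NIBR-LTSi replicate 1 correlated at 0.528. With 3 libraries per group, these correlations cannot decide it. With the replicate number as a block, 8 members were higher and 7 lower, and the calls of Psmc2 (adjusted p = 0.0668) and Psmf1 (0.0519) were lost. The median log2 fold change over all genes was between -0.0036 and 0.06 across the alternatives. Counts limit Psmb8 and Psmb9, which had 525 and 620 in all.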
